A study of Rattus norvegicus with 24 samples.

Results

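Alveolar type I cells are the thin, wide cells that cover most of the gas exchange surface of the lung. The 10 genes described here mark these cells and were matched by gene symbol, from a list drawn up with earlier results of these data known. All 10 were on the array (Rtkn2, Akap5, Clic5, Emp2, Cav1, Aqp5, Ager, Pdpn, Gprc5a and Hopx), out of 16592 named features and 19239 features in all, and each was measured by 1 feature. Right lung RNA of 24 adult male Wistar rats was hybridised to Affymetrix arrays. Each rat had its own array, and each group held 6 rats. The groups were massive brain damage with high tidal volume and low PEEP (BD HVT/LPEEP), brain damage with low tidal volume and open lung PEEP (BD LVT/OLPEEP), no brain damage with the high volume setting (NBD HVT/LPEEP) and no brain damage with the low volume setting (NBD LVT/OLPEEP). The sample labels call the high volume setting HT and the other best PEEP.

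All rats were anaesthetised with ketamine and xylazine and ventilated for 6 h. HVT/LPEEP meant a tidal volume of 12 mL/kg, and LVT/OLPEEP meant 6 mL/kg after a recruitment manoeuvre with a PEEP set by elastance. The respiratory rate was lower under HVT/LPEEP, to hold arterial carbon dioxide constant. Volume, PEEP, recruitment and rate therefore changed together. Brain damage was made by inflating an epidural balloon, and NBD rats had no burr hole. Of the 6 BD HVT/LPEEP arrays, 2 came from rats that died before the end, and the labels do not say which. No unventilated lung was among the arrays.

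Type I cells lie flat over the capillaries, separated from the endothelium by a shared basement membrane. They arise from type II cells, the cuboidal cells that make surfactant, by way of a flattening transitional state, and they are rich in caveolae, water channels and proteins of the cortical cytoskeleton. Because the cells are wide and thin, loss or stretch of type I cells is a recognised feature of lung injury, and a soluble form of the receptor encoded by Ager is known as a marker of type I cell injury. The samples are whole lung, and in such samples fewer type I cells and less RNA per cell cannot be told apart.

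Values are log2 of array signal as the authors normalized it, so a difference of -1 means halved signal, and levels were not compared between genes. The 10 genes lay between 9.43 and 13.67, above the median of all features (9.18). Arrays of a group correlated closely (mean r with the other arrays of the group 0.969 to 0.988), except NBD HVT/LPEEP replicate 12 (0.951) and BD LVT/OLPEEP replicate 16 (0.955). Replicate 16 had a mean level of 10 skeletal muscle markers 3.61 log2 units above the mean of all rats, against -0.32 to 0.17 in the other 23 rats. Replicate 12 was the lowest of its group for Rtkn2, Akap5, Clic5, Cav1 and Hopx and the highest, or level with it, for Aqp5, Ager and Gprc5a, and results are therefore also given without it. The surfactant protein gene Sftpc, the defining type II cell marker of lung, was bright in every group (means 14.29 to 14.35), close to the highest value of the arrays (14.53), where a difference may not show; other type II cell markers differed between groups and are given further on.

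The promoters of Rtkn2, Emp2 and Aqp5 are shown because in BD HVT/LPEEP lungs these 3 genes lay below every NBD HVT/LPEEP lung. The sequences are RefSeq windows of the rat build GRCr8, from 250 bases before to 50 bases after the transcription start, read 5′ to 3′ on the strand of the gene. Capitals mark the GC box bound by SP and KLF factors (GGGCGG, or CCGCCC on the other strand) and the AP-1 site (TGANTCA). Windows were found for 9 of the 10 genes.
Rtkn2 (chr20:20608813-20609112, minus strand): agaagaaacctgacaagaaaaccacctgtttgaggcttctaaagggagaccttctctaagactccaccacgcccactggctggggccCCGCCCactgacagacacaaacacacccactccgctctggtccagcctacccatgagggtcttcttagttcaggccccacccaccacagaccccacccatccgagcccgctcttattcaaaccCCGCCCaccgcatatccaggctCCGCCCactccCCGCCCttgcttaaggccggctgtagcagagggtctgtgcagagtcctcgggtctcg
Emp2 (chr10:5866619-5866918, plus strand): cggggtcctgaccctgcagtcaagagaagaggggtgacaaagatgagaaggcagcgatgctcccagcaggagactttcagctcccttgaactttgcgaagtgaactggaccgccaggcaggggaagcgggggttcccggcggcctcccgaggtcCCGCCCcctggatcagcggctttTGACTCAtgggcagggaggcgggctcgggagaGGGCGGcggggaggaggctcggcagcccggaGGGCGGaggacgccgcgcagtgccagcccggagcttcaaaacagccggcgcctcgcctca
Aqp5 (chr7:132601278-132601577, plus strand): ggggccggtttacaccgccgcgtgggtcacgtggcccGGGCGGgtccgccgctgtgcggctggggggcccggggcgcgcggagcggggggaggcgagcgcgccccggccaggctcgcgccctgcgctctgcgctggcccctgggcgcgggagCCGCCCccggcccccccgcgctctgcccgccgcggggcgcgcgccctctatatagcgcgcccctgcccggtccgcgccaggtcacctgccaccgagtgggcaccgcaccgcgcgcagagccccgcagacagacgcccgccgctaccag

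A total of 7 motifs was searched on both strands. Matches are counted by gene for the type I cell genes and by window for the background, and Cav1 had 2 windows. The GC box was in 7 of the 9 genes with a window (Rtkn2, Aqp5, Pdpn, Cav1, Clic5, Emp2 and Akap5), against 33.1% of all 33469 windows, and the Rtkn2 window held 4 matches. The AP-1 letters were found in Emp2, as TGACTCA from position -73, and in none of the other 8 genes with a window, against 7.33% of all windows. The CACCC box (CCACCC) was in Rtkn2, Hopx, Pdpn and Cav1, against 29.4% of all windows, and in Pdpn it overlapped a GC box. The core letters of NKX2-1 (CAAGTG, 14.1% of all windows), TEAD (GGAATG, 14.2%), FOXA (TGTTTAC, 3.78%) and GATA factors (AGATAA, 11.6%) matched in 0 of the 9. The Rtkn2, Emp2 and Aqp5 windows were 60.3%, 68% and 82.3% G and C, against a median of 51.7% over all windows. The windows of the other type I cell genes ran from 51% (Pdpn) to 69% (Akap5), and the matches were not adjusted for G and C content.

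Across the 4 groups, 8 of the 10 genes had their lowest group mean in BD HVT/LPEEP, and Pdpn and Gprc5a did not. The share of all features lowest in that group was not computed, so this count has no background. The groups explained 79.7% of the variance of Rtkn2 and 82.1% of that of Emp2. For the 10 genes the median share was 39.5%, beside a median of 22.6% and a 90th percentile of 50.3% over all features.

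**Figure D1:**
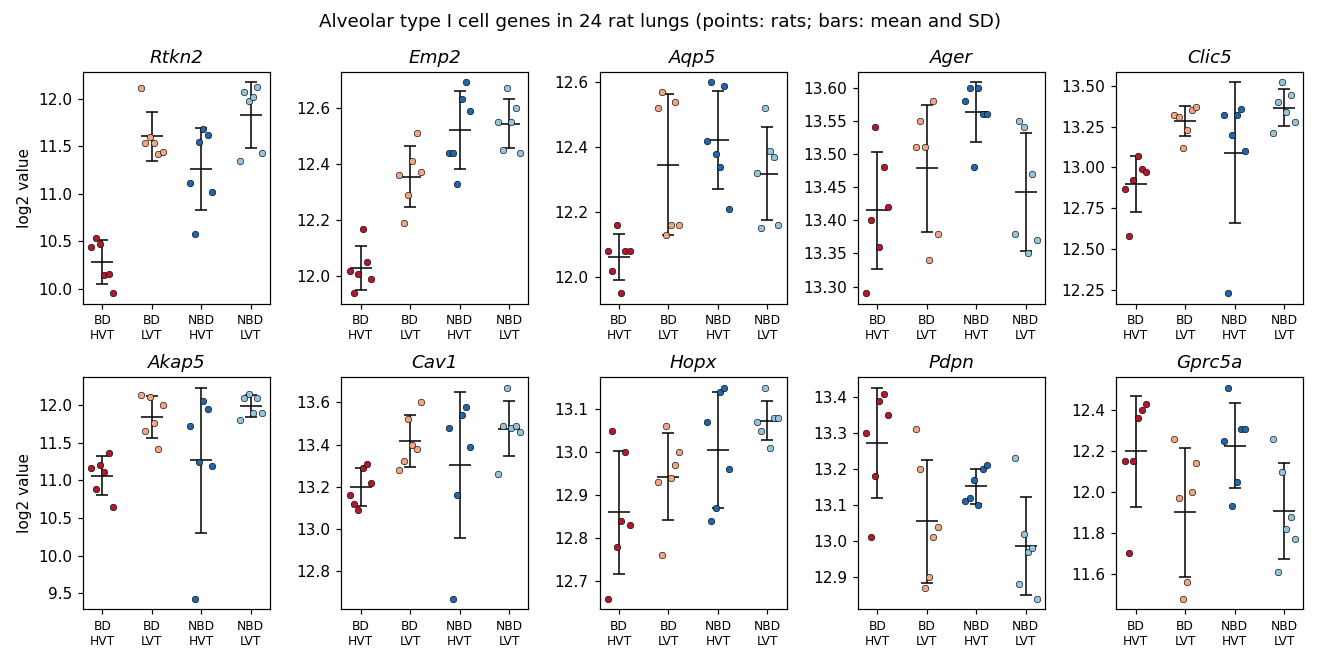
Log2 value (y axis, a separate scale for each gene) of the 10 type I cell genes in each rat (points) of the 4 groups, with the mean and SD (bars); LVT stands for LVT/OLPEEP and HVT for HVT/LPEEP. The 6 BD HVT/LPEEP rats lay at 9.95 to 10.53 for Rtkn2, below the other 18 rats, and at 11.94 to 12.17 for Emp2, also below the other 18, while for Pdpn the BD HVT/LPEEP mean was the highest of the 4 groups.

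Rtkn2, Akap5 and Clic5 encode intracellular scaffold and cytoskeletal proteins. Rtkn2, rhotekin 2, is enriched in type I cells of the lung. Its value in BD HVT/LPEEP lungs ran from 9.95 through a median of 10.29 to 10.53, against 11.42 to 12.11 with a median of 11.53 in BD LVT/OLPEEP lungs. The NBD lungs ranged from 10.57 through 11.33 to 11.68 with HVT/LPEEP, and from 11.34 through 12.00 to 12.12 with LVT/OLPEEP. The BD HVT/LPEEP rats did not overlap with any other group, and the NBD groups overlapped, with 3 of the 6 NBD HVT/LPEEP rats below all NBD LVT/OLPEEP rats.

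With brain damage, Rtkn2 was 2.51-fold lower under HVT/LPEEP than under LVT/OLPEEP (log2 difference -1.33, SE 0.18, limma adjusted p = 0.000444). No feature of the array had a lower difference in that comparison. Under HVT/LPEEP, BD lungs were 1.97-fold lower than NBD lungs (-0.98, SE 0.18, adjusted p = 0.000897). Under LVT/OLPEEP the BD minus NBD difference was -0.22 (95% interval -0.59 to 0.15, adjusted p = 0.675). Without brain damage the HVT/LPEEP minus LVT/OLPEEP difference was -0.57 (interval -0.94 to -0.19, adjusted p = 0.26), and the ventilation effects in BD and NBD differed by -0.76 (interval -1.29 to -0.23, adjusted p = 0.208). The difference between the ventilation effects was thus not past the threshold over all features. The BD ventilation call also held with Holm's correction (limma, Holm-adjusted p = 0.00399), and the HVT/LPEEP brain damage call did not (Holm-adjusted p = 0.332).

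Akap5 encodes an anchoring protein that holds protein kinase A and calcineurin near the plasma membrane. It ran from 10.65 through a median of 11.14 to 11.37 in BD HVT/LPEEP lungs, against 11.42 through 11.88 to 12.13 in BD LVT/OLPEEP lungs. Among NBD lungs it ranged from 9.43 through 11.49 to 12.05 with HVT/LPEEP, and from 11.80 through 11.99 to 12.15 with LVT/OLPEEP. The BD groups did not overlap, and the lowest rat of the series was NBD HVT/LPEEP replicate 12, with the next rat of its group at 11.19. The difference was -0.78 in BD (SE 0.29, adjusted p = 0.111) and -0.72 in NBD (SE 0.29, adjusted p = 0.262), so that neither passed. Without replicate 12 the NBD difference was -0.35 (adjusted p = 0.606), the BD ventilation difference was -0.78 with an adjusted p of 0.00398, and the BD minus NBD difference under HVT/LPEEP was -0.57 with an adjusted p of 0.0184.

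Clic5, a member of the chloride intracellular channel family that is linked to the cortical actin of type I cells, showed a like picture. It ran from 12.58 through 12.94 to 13.07 in BD HVT/LPEEP lungs, against 13.12 through 13.32 to 13.37 in BD LVT/OLPEEP lungs. Its NBD values ran from 12.23 through 13.26 to 13.36 with HVT/LPEEP and from 13.21 through 13.37 to 13.52 with LVT/OLPEEP. The BD groups did not overlap, and the lowest value was again that of replicate 12. The BD ventilation difference was -0.38 (SE 0.14, adjusted p = 0.0972), and without replicate 12 it was -0.38 with an adjusted p of 0.00341. The NBD ventilation difference was -0.28 (adjusted p = 0.31) with all rats and -0.10 (adjusted p = 0.703) without replicate 12. Under HVT/LPEEP the BD minus NBD difference was -0.19 (adjusted p = 0.398) with all rats and -0.36 (adjusted p = 0.00259) without replicate 12.

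Emp2 and Cav1 encode organisers of the cell membrane. Emp2, epithelial membrane protein 2, is a tetraspan protein of the PMP22 family. It ran from 11.94 through 12.02 to 12.17 in BD HVT/LPEEP lungs, against 12.19 through 12.37 to 12.51 in BD LVT/OLPEEP lungs. In NBD lungs it ran from 12.33 through 12.52 to 12.69 with HVT/LPEEP and from 12.44 through 12.55 to 12.67 with LVT/OLPEEP. The BD HVT/LPEEP rats lay below the rats of every other group, and the NBD groups overlapped almost fully.

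Emp2 was 1.40-fold lower in BD than in NBD lungs under HVT/LPEEP (-0.49, SE 0.06, adjusted p = 2.74e-05), a call that held with Holm's correction (Holm-adjusted p = 0.00118). In BD lungs it was 1.25-fold lower under HVT/LPEEP than under LVT/OLPEEP (-0.33, SE 0.06, adjusted p = 0.00527), a call that did not hold with Holm's correction (Holm-adjusted p = 0.519). Under LVT/OLPEEP, 5 of the 6 BD rats were below all NBD rats, with a difference of -0.19 (interval -0.32 to -0.06, adjusted p = 0.188) that did not pass. Without brain damage the ventilation difference was -0.02 (interval -0.15 to 0.11, adjusted p = 0.885). The ventilation effects in BD and NBD differed by -0.30 (interval -0.48 to -0.12, adjusted p = 0.156).

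Cav1, the main structural protein of caveolae, ran from 13.09 through 13.19 to 13.31 in BD HVT/LPEEP lungs, against 13.28 through 13.39 to 13.60 in BD LVT/OLPEEP lungs. The NBD lungs ranged from 12.67 through 13.44 to 13.58 with HVT/LPEEP and from 13.26 through 13.49 to 13.67 with LVT/OLPEEP. All pairs of groups overlapped. The difference was -0.22 in BD (SE 0.11, adjusted p = 0.27) and -0.17 in NBD (SE 0.11, adjusted p = 0.428). Without replicate 12, the NBD difference was -0.05 (adjusted p = 0.886). In the same fit the BD minus NBD difference under HVT/LPEEP was -0.23 with an adjusted p of 0.0448, beside -0.11 and 0.599 with all rats.

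Aqp5, Ager, Pdpn and Gprc5a encode proteins of the cell surface. Aqp5, the water channel of the apical membrane, was even in BD HVT/LPEEP lungs, from 11.95 through 12.08 to 12.16. In BD LVT/OLPEEP lungs it took 2 levels, with 3 rats at 12.13 to 12.16 and 3 at 12.52 to 12.57. Among NBD lungs it ranged from 12.21 through 12.40 to 12.60 with HVT/LPEEP and from 12.15 through 12.34 to 12.52 with LVT/OLPEEP. Under HVT/LPEEP the BD rats lay below all NBD rats, and Aqp5 was 1.29-fold lower (-0.36, SE 0.09, adjusted p = 0.00748). In BD lungs the HVT/LPEEP minus LVT/OLPEEP difference was -0.29 (SE 0.09, adjusted p = 0.056), just outside the threshold, and it passed without NBD HVT/LPEEP replicate 12 (adjusted p = 0.0417), without BD LVT/OLPEEP replicate 16 (0.0403) and without BD LVT/OLPEEP replicate 14 (0.0333). In NBD lungs the difference was 0.11 (interval -0.07 to 0.29, adjusted p = 0.538), and the ventilation effects differed by -0.39 (interval -0.65 to -0.14, adjusted p = 0.181).

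Ager encodes RAGE, the receptor for advanced glycation end products, which lies at the basal membrane of type I cells. It ran from 13.29 through 13.41 to 13.54 in BD HVT/LPEEP lungs, against 13.34 through 13.51 to 13.58 in BD LVT/OLPEEP lungs. Its NBD values ran from 13.48 through 13.57 to 13.60 with HVT/LPEEP and from 13.35 through 13.43 to 13.55 with LVT/OLPEEP. All groups overlapped, and NBD HVT/LPEEP had the highest mean. Ager was 1.11-fold lower in BD than in NBD lungs under HVT/LPEEP (-0.15, SE 0.05, adjusted p = 0.049). This call was at the threshold and passed in 8 of the 24 fits that left out 1 rat, where its adjusted p was 0.0272 to 0.12. The ventilation difference was -0.06 in BD (interval -0.17 to 0.04, adjusted p = 0.522) and 0.12 in NBD (interval 0.02 to 0.23, adjusted p = 0.264).

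Pdpn and Gprc5a had higher means under HVT/LPEEP in both BD and NBD lungs, without passing the test. Pdpn, podoplanin, is a mucin-type glycoprotein of the apical membrane that lymphatic endothelium and mesothelium also carry. Pdpn ran from 13.01 through 13.32 to 13.41 in BD HVT/LPEEP lungs, against 12.87 through 13.02 to 13.31 in BD LVT/OLPEEP lungs. In NBD lungs it ran from 13.10 through 13.14 to 13.21 with HVT/LPEEP and from 12.84 through 12.97 to 13.23 with LVT/OLPEEP. The groups overlapped, and the difference was 0.22 in BD (interval 0.06 to 0.38, adjusted p = 0.1) and 0.17 in NBD (interval 0.00 to 0.33, adjusted p = 0.297). The BD difference passed without BD HVT/LPEEP replicate 22 and without BD LVT/OLPEEP replicate 7, with a lowest adjusted p of 0.0358. Of 7 markers of mesothelium and lymphatic endothelium, 0 passed between ventilation settings in BD (smallest adjusted p 0.2, median difference 0.08). Flt4, the receptor of lymphatic endothelium for VEGF-C, was lower in BD than in NBD lungs under HVT/LPEEP (-0.53, SE 0.12, adjusted p = 0.006). It was the only 1 of the 7 called there, beside 8.5% of all features called lower. The mean level of the 7 markers in the rats ran from -0.10 to 0.10 in BD HVT/LPEEP lungs, -0.33 to 0.29 in BD LVT/OLPEEP lungs, -0.12 to 0.20 in NBD HVT/LPEEP lungs and -0.29 to 0.16 in NBD LVT/OLPEEP lungs. The part of these cells in the Pdpn values was not tested.

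Gprc5a, an orphan G protein-coupled receptor induced by retinoic acid, ran from 11.70 through 12.26 to 12.43 in BD HVT/LPEEP lungs, against 11.48 through 11.98 to 12.26 in BD LVT/OLPEEP lungs. The NBD lungs ranged from 11.93 through 12.28 to 12.51 with HVT/LPEEP and from 11.61 through 11.85 to 12.26 with LVT/OLPEEP. In both settings of the brain, 3 of the 6 HVT/LPEEP rats lay above all LVT/OLPEEP rats. The difference was 0.30 in BD (interval 0.00 to 0.60, adjusted p = 0.234) and 0.32 in NBD (interval 0.02 to 0.62, adjusted p = 0.283). The BD minus NBD difference was -0.03 under HVT/LPEEP and -0.01 under LVT/OLPEEP.

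Hopx encodes a small homeodomain protein without DNA binding that marks type I cells and their progenitors. It ran from 12.66 through 12.83 to 13.05 in BD HVT/LPEEP lungs, against 12.76 through 12.96 to 13.06 in BD LVT/OLPEEP lungs. Among NBD lungs it ranged from 12.84 through 13.01 to 13.15 with HVT/LPEEP and from 13.01 through 13.08 to 13.15 with LVT/OLPEEP. All groups overlapped, and none of the differences passed. The lowest p was that of BD against NBD under HVT/LPEEP (-0.14, interval -0.28 to -0.01, adjusted p = 0.154).

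**Figure D2:**
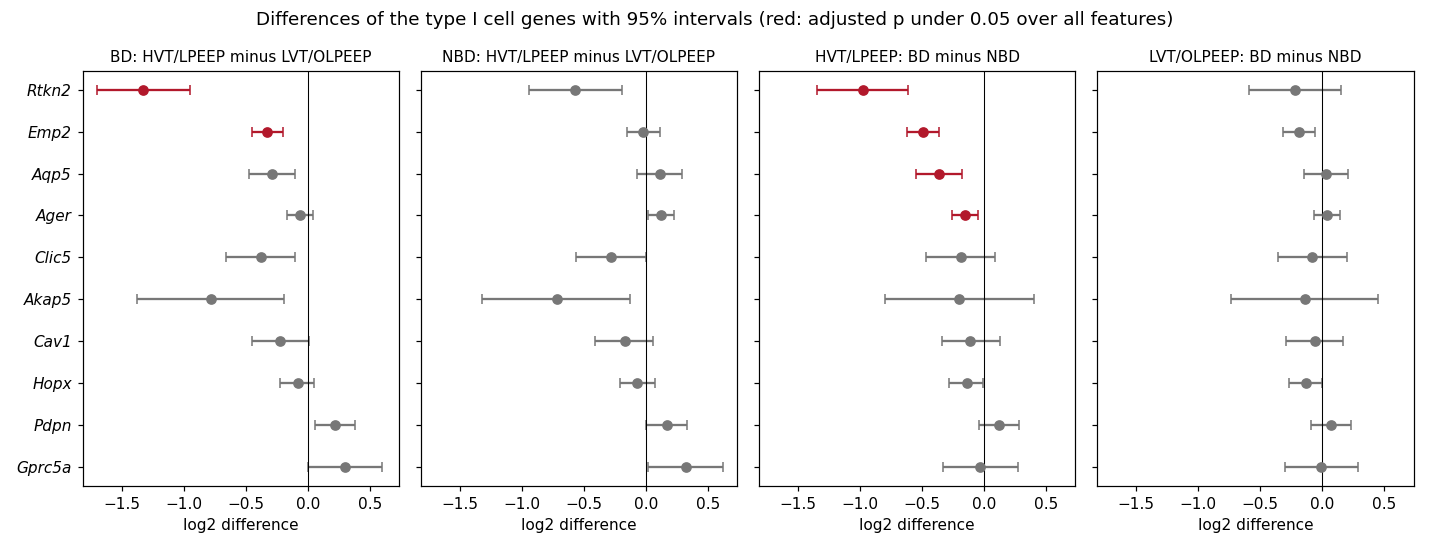
Log2 difference (x axis) with its 95% interval for each of the 10 genes (y axis) in the 4 pairwise comparisons; red marks an adjusted p under 0.05 over all features, grey the others. Rtkn2 and Emp2 were red and negative in BD ventilation, these and Aqp5 and Ager under HVT/LPEEP between BD and NBD, and none in the other panels.

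Counted over the 10 genes, HVT/LPEEP against LVT/OLPEEP in BD gave 2 lower calls (Rtkn2 and Emp2), beside 2.82% of all features called lower, and 0 higher calls, beside 2.85% called higher. The median difference of the 10 genes was -0.25, against -0.01 over all features, of which 80% lay between -0.23 and 0.23. The BD groups did not overlap, with HVT/LPEEP lower, for 4 genes (Rtkn2, Akap5, Clic5 and Emp2), beside 1.76% of all features. Without NBD HVT/LPEEP replicate 12, 5 genes were called lower (Rtkn2, Aqp5, Clic5, Emp2 and Akap5), beside 4.81% of all features.

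BD against NBD under HVT/LPEEP gave 4 lower calls (Rtkn2, Emp2, Aqp5 and Ager), beside 8.5% of all features called lower, and 0 higher calls, beside 5.9%. The median of the 10 genes was -0.17, against -0.01 over all features. The groups did not overlap, with BD lower, for Rtkn2, Emp2 and Aqp5, beside 3.64% of all features. Without replicate 12 there were 6 lower calls (Rtkn2, Aqp5, Cav1, Clic5, Emp2 and Akap5), beside 9.67%, and Ager was no longer called (adjusted p = 0.0716). These comparisons share the BD HVT/LPEEP rats.

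HVT/LPEEP against LVT/OLPEEP in NBD gave 0 calls of the 10 genes with limma, beside 0% of all features called higher and 0% called lower. At an unadjusted p under 0.05, 3 were higher (Ager, Pdpn and Gprc5a) and 2 lower (Rtkn2 and Akap5), beside 16.3% of all features in either direction. BD against NBD under LVT/OLPEEP also gave 0 calls, beside 0.208% called higher and 0.53% called lower, and 1 gene (Emp2) at an unadjusted p under 0.05, beside 11.6%. Limma with array weights called Emp2 in that comparison, and the share of all features called by that fit is not given here. The difference of the ventilation effects gave 0 calls, beside 0% called higher and 0.0104% called lower, and 4 genes (Rtkn2, Ager, Aqp5 and Emp2) at an unadjusted p under 0.05, all negative, beside 13.7%. Limma's fits with trend and robust settings and without moderation called 0 of the 10 genes in these 3 comparisons.

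Within groups the 10 genes did not vary as 1 block. Over the 45 pairs, the median correlation of the deviations from the group means across the 24 rats was 0.14, and 34 pairs were positive. Cav1, Clic5 and Akap5 varied together (r = 0.83 to 0.84), and so did Pdpn with Gprc5a (r = 0.80). Rtkn2 and Emp2 had an r of 0.73 over all rats and of 0.13 within groups. These correlations are descriptions over arrays normalized together, and replicate 12 is the lowest rat of NBD HVT/LPEEP in each of Cav1, Clic5 and Akap5.

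The features most like Rtkn2 over the 24 rats were Cdkn2b, which encodes a cell cycle inhibitor (r = 0.91, 0.75 within groups), Dram (0.89, 0.67 within groups), Bmp15 (0.88, 0.79 within groups), Ick (0.87, 0.52 within groups), Arrb1, the gene of beta-arrestin 1 (0.87, 0.40 within groups), and Obfc1 (0.87, 0.73 within groups). Those most like the mean of the 10 genes were Shroom2 (0.93, 0.87 within groups), Tp53bp2 (0.92, 0.80), Ptpn13 (0.91, 0.83), Ick (0.91, 0.77), RGD1311564 (0.91, 0.80) and Kdsr (0.90, 0.89). In that mean NBD HVT/LPEEP replicate 12 deviated from its group by -0.38, against -0.12 to 0.22 in the other rats. The correlations were not computed without it. Bmp15 was dim, with group means of 7.79 to 8.36, below the median of all features (9.18). Arrb1 averaged 11.45 ± 0.14 in BD HVT/LPEEP lungs and 12.11 ± 0.16 in BD LVT/OLPEEP lungs, 12.01 ± 0.08 in NBD HVT/LPEEP lungs and 12.15 ± 0.18 in NBD LVT/OLPEEP lungs (SD, n = 6 each).

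Of 20 further type I cell markers, 1 was called lower between ventilation settings in BD, beside 2.82% of all features. It was Cyp2b1, a cytochrome P450 of rat lung, at 11.36 ± 0.30 in BD HVT/LPEEP lungs and 12.33 ± 0.28 in BD LVT/OLPEEP lungs (SD, n = 6 each; -0.97, SE 0.20, adjusted p = 0.00715). The median difference of the 20 was -0.20, with 17 below 0. Without replicate 12, 3 of the 20 were called, beside 1668 of all 19239 features in either direction.

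BD against NBD under HVT/LPEEP gave 7 lower calls among the 20, beside 8.5% of all features, and 0 higher calls, beside 5.9%. The median difference of the 20 was -0.25. The smallest p were those of Fstl3, a secreted activin-binding protein (-0.66, SE 0.09, adjusted p = 5.03e-05), Pxdc1 (-0.89, SE 0.12, adjusted p = 7.73e-05) and Gramd2, a GRAM domain gene known as a type I marker in mouse (-0.89, SE 0.13, adjusted p = 0.000101), and in each the BD rats lay below all NBD rats. Without replicate 12, 11 of the 20 were called, beside 3143 of all 19239 features in either direction. Under LVT/OLPEEP, Gramd2 (-0.59, SE 0.13, adjusted p = 0.0302) and Fstl3 (-0.38, SE 0.09, adjusted p = 0.0478) were lower in BD than in NBD lungs, and these calls held in 14 and 6 of the 24 fits that left out 1 rat, of which 9 called none of the 20. Gramd2 averaged 11.21 ± 0.25 in BD HVT/LPEEP lungs and 11.50 ± 0.33 in BD LVT/OLPEEP lungs, and 12.10 ± 0.19 in NBD HVT/LPEEP lungs and 12.09 ± 0.10 in NBD LVT/OLPEEP lungs. Between BD and NBD under LVT/OLPEEP, 0.53% of all features were called lower. None of the 20 passed between ventilation settings in NBD or for the difference of the ventilation effects with limma. In NBD 8 of them had an unadjusted p under 0.05, beside 16.3% of all features in either direction. Igfbp2, Krt7, Pxdc1 and Fstl3 were higher, and Lmo7, Sema3e, Mal2 and Cyp2b1 were lower. For the difference 3 had such a p, beside 13.7%. Limma with array weights called 1 in NBD, a count for which the share of all features is not given here.

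**Figure D3:**
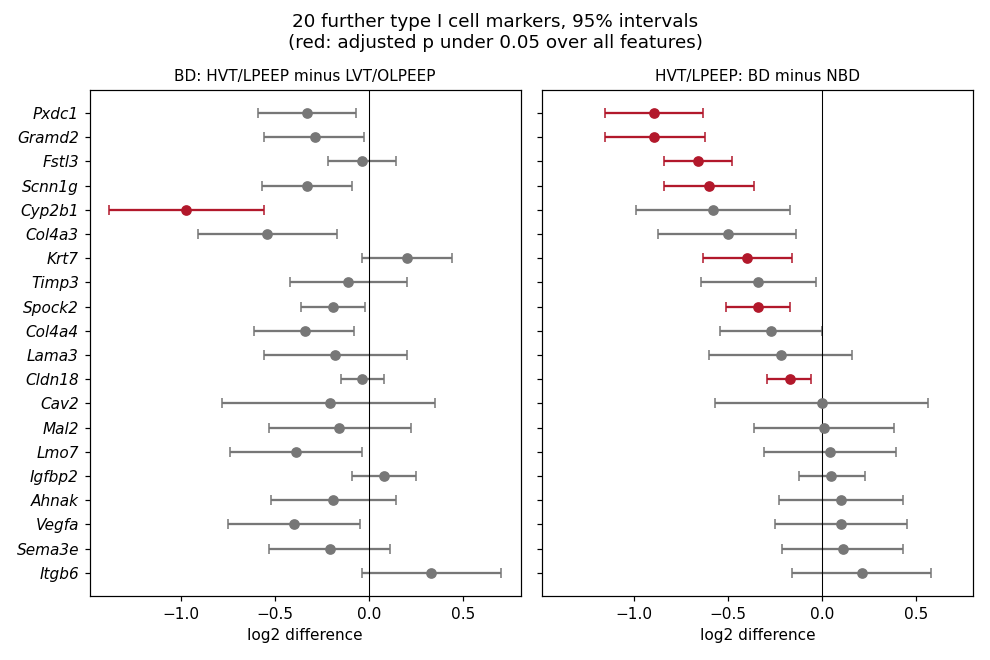
Log2 difference (x axis) with its 95% interval for 20 further type I cell markers (y axis, ordered by the right panel), for HVT/LPEEP minus LVT/OLPEEP in BD (left) and BD minus NBD under HVT/LPEEP (right); red marks an adjusted p under 0.05 over all features. Only Cyp2b1 is red on the left, and 7 markers, all negative, are red on the right.

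Beside 2.82% of all features called lower, 3 of 13 type II cell markers were lower in BD under HVT/LPEEP than under LVT/OLPEEP. These were Scd, a fatty acid desaturase (-0.61, SE 0.12, adjusted p = 0.00678), Abca3, the lamellar body lipid transporter (-0.44, SE 0.09, adjusted p = 0.00692), and the transcription factor gene Etv5 (-0.57, SE 0.13, adjusted p = 0.0145). Under HVT/LPEEP 4 were lower in BD than in NBD lungs, led by Abca3 (-0.55, SE 0.09, adjusted p = 0.000326), Scd (-0.49, SE 0.12, adjusted p = 0.00926) and Sftpb, the gene of a hydrophobic surfactant protein (-0.24, SE 0.06, adjusted p = 0.0124). The medians of the 13 were -0.13 and -0.21. Of all features, 8.5% were called lower between BD and NBD under HVT/LPEEP. The mean level of the 13 in each rat ran from -0.33 to -0.06 in BD HVT/LPEEP lungs, -0.14 to 0.16 in BD LVT/OLPEEP lungs, -0.06 to 0.16 in NBD HVT/LPEEP lungs and 0.02 to 0.15 in NBD LVT/OLPEEP lungs.

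Genes of the transitional state between type II and type I cells included calls of the opposite sign. Of 13, 4 were higher in BD under HVT/LPEEP than under LVT/OLPEEP, beside 2.85% of all features, and 0 lower, beside 2.82%. The median difference of the 13 was 0.33. The smallest p were those of the EGF receptor ligands Areg (1.39, SE 0.24, adjusted p = 0.00258) and Hbegf (1.03, SE 0.20, adjusted p = 0.00553) and of the keratin gene Krt8 (0.79, SE 0.16, adjusted p = 0.00692). Krt8 averaged 11.42 ± 0.29 in BD HVT/LPEEP lungs and 10.62 ± 0.31 in BD LVT/OLPEEP lungs, and 11.32 ± 0.30 in NBD HVT/LPEEP lungs and 10.63 ± 0.26 in NBD LVT/OLPEEP lungs. In NBD, 12 of the 13 differences were above 0 with a median of 0.32. None passed with limma, and 7 had an unadjusted p under 0.05, beside 16.3% of all features. With array weights 2 passed, a count for which the share of all features is not given here. Between BD and NBD under HVT/LPEEP, Plaur, the urokinase receptor gene, was called higher (0.45, SE 0.15, adjusted p = 0.0456), a call that held in 7 of the 24 fits that left out 1 rat, while 3 of the 13 were called without replicate 12. Of all features, 5.9% were called higher in that comparison, and 3143 of 19239 were called without replicate 12. Several of the transitional genes are also induced in other cells of the lung, and the cell that carries the signal was not measured.

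Of 17 transcription factor genes of the alveolar epithelium, Nkx2-1, the lung lineage factor, was lower in BD under HVT/LPEEP (-0.46, SE 0.10, adjusted p = 0.0108) and in BD against NBD under HVT/LPEEP (-0.31, SE 0.10, adjusted p = 0.0392). Elf3, an epithelial ETS factor, was higher in the BD ventilation comparison (0.86, SE 0.23, adjusted p = 0.0317). The call of Nkx2-1 held in all 24 fits that left out 1 rat for BD ventilation and in 15 of them for BD against NBD, and that of Elf3 in 17. The 17 include Hopx, and their median difference in BD ventilation was -0.07. Of all features, 2.82% were called lower and 2.85% higher in BD ventilation, and 8.5% lower in BD against NBD under HVT/LPEEP.

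Among 19 caveola genes and paralogs of the 10 genes, 3 were lower and 1 higher in BD ventilation. Of all features, 2.82% were called lower and 2.85% higher. Pmp22, a paralog of Emp2, was lower (-0.42, SE 0.09, adjusted p = 0.0096), as was Clic3 (-0.35, SE 0.08, adjusted p = 0.0164), while Clic4 was higher (0.51, SE 0.14, adjusted p = 0.0305). Clic4 averaged 12.78 ± 0.17 in BD HVT/LPEEP lungs and 12.27 ± 0.22 in BD LVT/OLPEEP lungs, against 12.35 ± 0.26 in NBD HVT/LPEEP lungs and 12.33 ± 0.31 in NBD LVT/OLPEEP lungs, so that the family of Clic5 held members that moved in opposite directions. Between BD and NBD under HVT/LPEEP, 3 were lower and 2 higher, led by Clic3 (-0.43, SE 0.08, adjusted p = 0.0013), Pmp22 (-0.46, SE 0.09, adjusted p = 0.00156) and Prkcdbp, a caveola coat gene (-0.72, SE 0.14, adjusted p = 0.00159). In that comparison 8.5% of all features were called lower and 5.9% higher. With 1 rat left out, 2 to 5 of the 19 were called in BD ventilation and 3 to 5 between BD and NBD under HVT/LPEEP. Each Clic4 call was kept in 18 of the 24 fits.

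Genes for ligands of RAGE, the Ager product, and for its signalling were higher in BD than in NBD lungs under HVT/LPEEP for 5 of 7, led by the calgranulin gene S100a9 (0.76, SE 0.20, adjusted p = 0.0132), S100a4 (0.62, SE 0.17, adjusted p = 0.0203) and S100a8 (0.97, SE 0.28, adjusted p = 0.0246), while Ager was lower. In this comparison 5.9% of all features were called higher. S100a8 and S100a9 are abundant in neutrophils and monocytes. With 1 rat left out, 2 to 5 of the 7 were called. The 7 include Mok, a kinase gene whose older symbol is Rage but which is unrelated to the receptor, and it was not called (-0.21 in this comparison). Of 9 neutrophil and monocyte markers, which include S100a8 and S100a9, 3 were called higher in the same comparison, the third being Ncf1, a subunit gene of the phagocyte oxidase (0.58, SE 0.15, adjusted p = 0.0137). Their mean level ran from -0.02 to 0.43 in BD HVT/LPEEP lungs, -0.05 to 0.29 in BD LVT/OLPEEP lungs, -0.69 to 0.31 in NBD HVT/LPEEP lungs and -0.46 to 0.35 in NBD LVT/OLPEEP lungs, with replicate 12 the highest of its group. Under LVT/OLPEEP the median BD minus NBD difference of the 7 RAGE genes was 0.45, with 6 above 0. There 0 were called with limma (smallest adjusted p 0.127). Under HVT/LPEEP their median was 0.39, also with 6 above 0. For the difference of the ventilation effects 0 of the 7 were called. The part of infiltrating cells in the type I cell gene values was not tested.

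Of 13 endothelial markers, Aplnr (-0.89, SE 0.19, adjusted p = 0.0103) and Ramp2 (-0.64, SE 0.18, adjusted p = 0.04) were lower in BD ventilation, with 12 of 13 differences below 0 and a median of -0.24. With 1 rat left out, 1 to 3 of the 13 were called in BD ventilation, and Ramp2 was kept in 18 of the 24 fits. Of all features, 2.82% were called lower in BD ventilation and 8.5% between BD and NBD under HVT/LPEEP. Between BD and NBD under LVT/OLPEEP, 0.208% were called higher. Ramp2 (-0.81, SE 0.18, adjusted p = 0.0046) and Vwf (-0.48, SE 0.13, adjusted p = 0.0174) were lower between BD and NBD under HVT/LPEEP, with a median of -0.25, and Egfl7 was higher in BD than in NBD lungs under LVT/OLPEEP (0.64, SE 0.13, adjusted p = 0.0153). The mean endothelial level in each rat ran from -0.41 to 0.06 in BD HVT/LPEEP lungs, -0.05 to 0.32 in BD LVT/OLPEEP lungs, -0.18 to 0.31 in NBD HVT/LPEEP lungs and -0.36 to 0.38 in NBD LVT/OLPEEP lungs. Cav1 is also expressed by endothelium, and its part in the Cav1 values was not tested. The mean level of the 10 type I cell genes ran from -0.33 to -0.13 in BD HVT/LPEEP lungs, -0.03 to 0.22 in BD LVT/OLPEEP lungs, -0.35 to 0.24 in NBD HVT/LPEEP lungs and 0.02 to 0.27 in NBD LVT/OLPEEP lungs. This mean is unweighted, so genes with a wide range over the rats (Akap5 2.72, Rtkn2 2.17) count for more than those with a narrow one (Ager 0.31). Of 5 club and ciliated cell markers and 10 skeletal muscle markers, 0 passed in any comparison with limma, and without BD LVT/OLPEEP replicate 16, 1 muscle marker passed in BD ventilation.

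**Figure D4:**
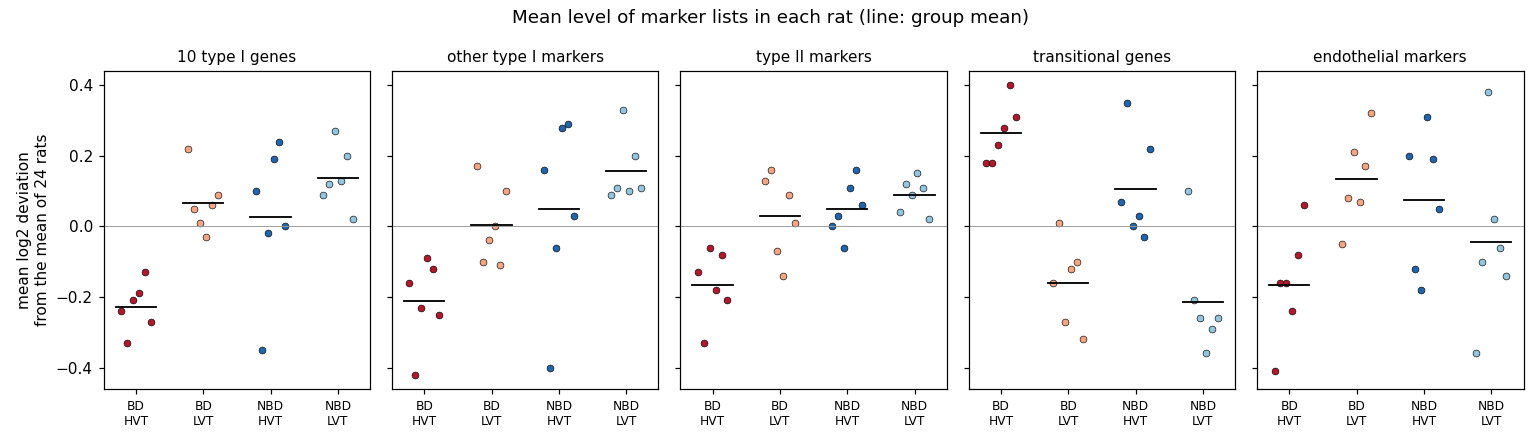
Mean log2 deviation from the mean of all 24 rats (y axis) of 5 gene lists in each rat (points) of the 4 groups, with the group mean (line); LVT stands for LVT/OLPEEP and HVT for HVT/LPEEP. The mean of the 10 type I genes was -0.33 to -0.13 in the 6 BD HVT/LPEEP rats and -0.35 in NBD HVT/LPEEP replicate 12, and the transitional genes were 0.18 to 0.40 in BD HVT/LPEEP lungs.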

How the data were processed

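Right lung RNA of 24 rats was measured on Affymetrix arrays, 1 per rat. The values the authors deposited are on the log2 scale, with 1 value for each feature in each rat, and were used unchanged. For background correction and probe summary no method is given in the sources used. Once sorted, the arrays held the same values, so they had been quantile-normalized. Scanner files were not used here, so signal over background is unknown, and the number of arrays limits the precision.

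Features were named from the platform annotation, which can be old, and 2647 of 19239 had no symbol. The list genes Pxdc1, Ccl21, Mok and Cxcr2 stand in it under another symbol and were found through the gene number of the feature in a current RefSeq gene table. Groups came from the sample labels. With R 4.3.3 and limma 3.58.1, a model of the 4 group means (20 residual degrees of freedom) was fitted with lmFit and eBayes to all features, and two-sided p-values were adjusted by Benjamini-Hochberg over all 19239 features (threshold 0.05). The 4 groups share an estimate of spread, so omitting an NBD rat can change the p of a BD comparison but not its difference. The paper's methods name a mixed-model ANOVA with Holm's correction, without its model terms. The fit was tested on simulated data.

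The 10 genes, the marker lists, the tests and the motifs were chosen with earlier results of these data known. All 10 genes are named. Some lists overlap, and a shared gene counts in each. Hopx is also among the transcription factor genes. Itgb6 is both a further type I marker and a transitional gene, and Cav2 is both a further type I marker and a caveola gene. Of each other list, up to 3 genes per comparison with the smallest p among those called are named, and of all named features the 6 with the highest Pearson r with Rtkn2 and with the mean of the 10. Alternatives were another normalization and centring, leaving out dim features, a fit limited to the arrays compared, other eBayes settings, array weights, Holm's correction, no adjustment, the animal number as covariate, omission of each rat and of each pair of BD HVT/LPEEP rats and, added after seeing the data, omission of the 2 arrays least like their group.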

Additional observations from a re-analysis of the deposited data

Results flagged for a closer look

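Of 40 sets of 6 rats (10 genes in 4 groups), 4 held a rat far from the other 5 by Dixon's criterion at the 95% level. Chance alone flags about 1 set in 20. Rtkn2 was 12.11 in BD LVT/OLPEEP replicate 7, with the nearest rat at 11.60. Ager was 13.48 in NBD HVT/LPEEP replicate 13, with the nearest rat at 13.56. NBD HVT/LPEEP replicate 12 had the other 2, with Clic5 at 12.23 (nearest rat 13.10) and Akap5 at 9.43 (nearest rat 11.19). Without BD LVT/OLPEEP replicate 7, or any other single rat, Rtkn2 stayed called in BD ventilation (difference -1.38 to -1.22, adjusted p 0.000216 to 0.00198). The calls of Clic5 and Akap5 turn on replicate 12 and are given with and without it in the report.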

How the results depend on the processing

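No paired analysis was possible because the animal numbers in the labels are unique to each rat. In BD ventilation the count of type I cell genes called was 2, and it was 4 with a fit of only the arrays compared, 5 with array weights (1 of them higher), 1 with Holm's correction, 7 without adjustment, 5 without the 2 arrays least like their group and 2 to 5 when each rat was left out in turn, with 5 without NBD HVT/LPEEP replicate 12. Between BD and NBD under HVT/LPEEP it was 4, and it was 7 with array weights, 1 with Holm's correction and as low as 2 when pairs of BD HVT/LPEEP rats were left out. In NBD ventilation it was 0, and 5 without adjustment. Between BD and NBD under LVT/OLPEEP it was 0, and 1 with array weights and 1 without adjustment. For the difference of the ventilation effects it was 0, and 4 without adjustment. Without replicate 12, 1668 of all 19239 features were called in BD ventilation. Without adjustment, 16.3% of all features passed in NBD ventilation, 11.6% between BD and NBD under LVT/OLPEEP and 13.7% for the difference. For the other settings the share of all features called is not given here, so those counts have no background. Beyond the estimate of spread that the 4 groups share, the cause of these shifts was not tested. Rtkn2 and Emp2 kept both of their calls in all 24 fits that left out a rat and in all 15 that left out a pair of BD HVT/LPEEP rats, of which 2 were non-survivors; Aqp5 kept its call under HVT/LPEEP in 14 of the 15 and Ager in 3. The differences that changed sign were all uncalled. With array weights, Aqp5 between BD and NBD under LVT/OLPEEP was -0.01, and Gprc5a was 0.09 under HVT/LPEEP, 0.02 under LVT/OLPEEP and 0.07 for the difference of the ventilation effects. Without the 2 arrays least like their group, Gprc5a was 0.03 under HVT/LPEEP and 0.06 under LVT/OLPEEP, where animal number as a covariate gave 0.01. When each rat was left out in turn, the ranges were -0.01 to 0.07 for Aqp5 under LVT/OLPEEP, -0.06 to 0.02 for Emp2 in NBD ventilation, -0.09 to 0.07 for Gprc5a under HVT/LPEEP and -0.08 to 0.08 under LVT/OLPEEP, and for the difference of the ventilation effects -0.05 to 0.03 for Hopx, -0.17 to 0.01 for Cav1, -0.11 to 0.08 for Gprc5a and -0.43 to 0.10 for Akap5. With pairs of BD HVT/LPEEP rats left out, that difference reached 0.06 for Hopx, -0.01 for Pdpn, 0.00 for Cav1, 0.11 for Gprc5a and 0.09 for Akap5, and Gprc5a reached 0.11 under HVT/LPEEP. Signal over background is unknown, each gene rests on 1 feature, and the number of rats limits the precision.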
